A study of Rattus norvegicus with 8 samples.

Results

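rno-miR-338 is a rat microRNA (miRNA) hairpin whose mature products were followed here in islets of young and adult Sprague Dawley rats. Its members are the features, meaning printed spots, of an Agilent rat miRNA array that the scanner files name as a mature product of that hairpin, whichever arm. The rule found 2 products of the 677 miRNAs on the array, named miR-338 and miR-338*, which are measured by 6 of 1644 probes and 40 of 13540 features on each array. By the older naming, miR-338 is taken as the arm now called miR-338-3p and miR-338* as miR-338-5p. The scanner files give no probe sequence against which this could be checked. The islets were labelled as control islets of 10-day-old rats (P10, n = 4 arrays, sex not given) and of 3-month-old male rats (adult, n = 4 arrays), and the part of sex was not tested. Total RNA of whole islets was labelled with a single dye and read on 1 slide, where every P10 array shares 1 column and every adult array another, so age and position on the slide cannot be told apart. The arrays of an age are labelled as biological replicates.

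MicroRNAs are short RNAs that pair with messenger RNAs, mainly through bases 2 to 8 of the miRNA (the seed), and lower their translation or stability. Each hairpin can give a mature product from either arm, and for miR-338 the 3p arm is the one usually studied. miR-338 is encoded within Aatk, a gene for a kinase expressed strongly in the nervous system, and miR-338-3p is best known from maturing oligodendrocytes, the myelinating glia of the brain. In islets, miR-338-3p has been described as falling when beta-cell mass expands in pregnancy and obesity, and lowering it has been described to favour beta-cell proliferation and survival. The comparison of P10 with adult islets therefore asks whether its level differs between the still maturing and the mature islet.

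The hairpin and its arms are shown because the array measures the arms separately and because a second hairpin lies on the opposite strand. The sequences are those of RefSeq, build GRCr8. The array was designed on an older build, and no coordinate was converted. The Mir338 hairpin of 66 bases lies on the minus strand at chr10:105796342-105796407, within the span of Aatk, which is transcribed from the same strand. In the hairpin the arms are in capitals, first miR-338-5p and then miR-338-3p; in the mature sequences the seed is in capitals.
Mir338 hairpin: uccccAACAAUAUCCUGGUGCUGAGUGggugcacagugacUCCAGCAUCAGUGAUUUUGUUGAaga
rno-miR-338-3p (array name miR-338): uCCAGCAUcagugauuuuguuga
rno-miR-338-5p (array name miR-338*): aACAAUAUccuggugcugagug
The seed of miR-338-3p was shared with 0 other of the 693 mature rat miRNAs in the RefSeq table, and so was that of miR-338-5p.

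The Mir3065 hairpin of 103 bases lies on the plus strand at chr10:105796325-105796427 and spans the whole Mir338 hairpin, at its bases 18 to 83. Its mature products are shown with their seeds in capitals because they pair with those of miR-338.
rno-miR-3065-5p: uCAACAAAaucacugaugcu
rno-miR-3065-3p: uCAGCACCaggauauuguugggga
All 20 bases of miR-3065-5p are the complement of positions 4 to 23 of miR-338-3p, counted from its 5′ end. A run of 19 bases of miR-3065-3p is the complement of positions 1 to 19 of miR-338-5p. Each of these products has its own probes on the array.

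**Figure D1:**
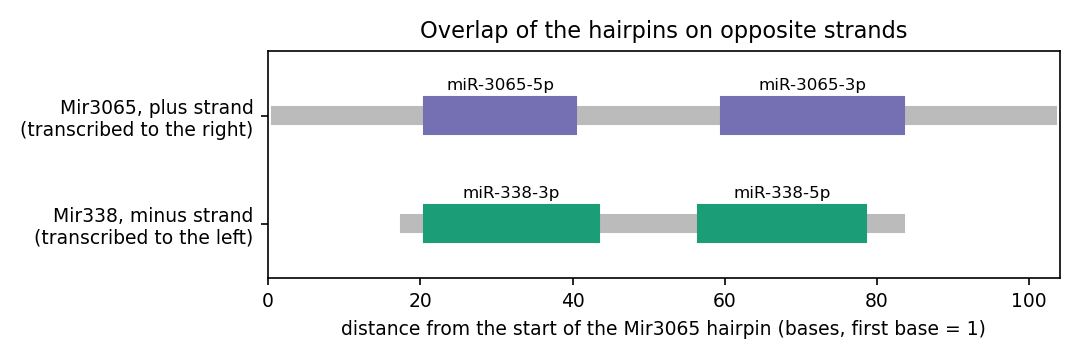
Positions of the Mir338 and Mir3065 hairpins (grey) and their mature products (coloured) in bases from the start of the Mir3065 hairpin, each strand on its own row. The Mir338 hairpin covers bases 18 to 83 of the 103 bases of Mir3065, and miR-338-3p lies over miR-3065-5p.

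Of the 2 products, miR-338 was measured above background in islets and miR-338* was not. A feature counts as well above background by the scanner software's own flag, and features it flagged as outliers were left out. Of the features used over the 8 arrays, all but 17 of 154 were well above background for miR-338, and 0 of 158 were for miR-338*. The scanner software called miR-338 detected on 8 of 8 arrays and miR-338* on 0 of 8. The mean processed signal of the miR-338* probes lay between -10.2 and 6.74 intensity units over all arrays and probes, around the level of an empty spot. One flagged miR-338* outlier feature was well above background, and the other features of that probe were not. No age comparison of miR-338* could therefore be made, and its values give only a bound.

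The antisense products were not measured above background either. For miR-3065-5p, 0 of 156 used features were well above background, and its probe means ran from -7.33 to 0.0788 units. For miR-3065-3p, 0 of 157 were, and its probe means ran from -9.96 to -0.532 units. Signals of different probes are not compared in size here, because each probe has its own yield.

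**Figure D2:**
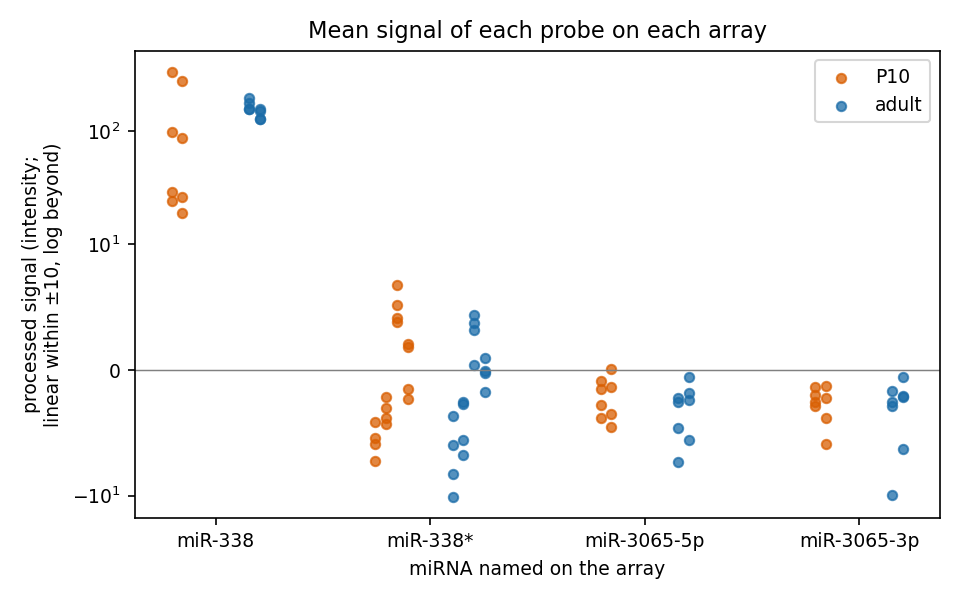
Mean processed signal of each probe on each array (intensity units; the axis is linear within ±10 and logarithmic beyond) for the miR-338 and miR-3065 products, with 1 point per probe and array. All miR-338 points lie at 18.95 or higher, while the points of miR-338*, miR-3065-5p and miR-3065-3p all lie between -10.2 and 6.74.

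Before scaling, the signal of miR-338 was uneven in the P10 islets, low on 3 of the 4 arrays and highest of all on the other, and even in the adult islets. Its brighter probe, A_26_P00001065, gave a mean of 24.04 ± 3.52 units (SD over features) on P10 replicate 1 and 28.8 ± 6.63 on P10 replicate 2. It gave 98.5 ± 3.96 on P10 replicate 3 and 334 ± 23.6 on P10 replicate 4. On the adult arrays it gave 178 ± 13.3, 158 ± 16.7, 159 ± 14.8 and 198.7 ± 8.48 for replicates 1 to 4. The highest P10 signal was 13.9 times the lowest, against 1.26 times among the adults. On P10 replicate 1, 4 of 9 features were well above background, on P10 replicate 2, 8 of 9 were, and on the other arrays all were. The spread between features of an array was smaller than the gap between P10 replicates 2, 3 and 4, but the means of P10 replicates 1 and 2 differed by less than the feature SD of replicate 2.

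The arrays also differed in overall brightness, so each array was scaled by the 75th percentile of its own signal over the 278 probes that were well above background on all 8 arrays. That percentile was 388, 440, 989 and 1690 units on P10 replicates 1 to 4 and lay between 1284 and 1677 units on the adult arrays. The P10 arrays thus differed 4.35-fold in overall brightness, with replicates 1 and 2 the dimmest. P10 replicates 1 to 4 lay in slide rows 1 to 4, so their brightness rose in the order of the rows. Adult replicates 1 to 4 lay in rows 4 to 1, at 1354, 1401, 1677 and 1284 units, which do not follow the row order. Within P10, replicate and slide row cannot be told apart. Scaling brought the range of miR-338 over the P10 arrays to 3.19-fold. Values below are log2 of the signal over this percentile, with a floor at -5.51.

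After scaling, miR-338 stood at -4.01, -3.93, -3.33 and -2.34 (log2) on P10 replicates 1 to 4, a mean of -3.40 ± 0.77 (SD, n = 4). On adult replicates 1 to 4 it stood at -2.93, -3.15, -3.40 and -2.69, a mean of -3.04 ± 0.30 (SD, n = 4). The ages overlapped: P10 replicate 4 was above every adult array, P10 replicate 3 fell among them, and P10 replicates 1 and 2 were below them all. The adult minus P10 difference was 0.36 ± 0.37 (SE), which is 1.29-fold, with a 95% interval from -0.50 to 1.22. It was smaller than the SD of the P10 arrays and did not pass the test (limma adjusted p = 0.475). An exact two-sided permutation test of the same values gave p = 0.4, where the smallest p that 4 against 4 arrays allow is 0.0286. The interval runs from a level 1.41-fold lower in adults to one 2.33-fold higher, so neither direction was settled at this precision. In whole islets, fewer cells of a type and less RNA per cell cannot be told apart.

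The missed call stood against a background of many called miRNAs. Of the 238 miRNAs tested, those well above background on at least 4 arrays, 113 differed between the ages at a limma adjusted p under 0.05 (47.5%). They were 65 higher in adults (27.3%) and 48 lower (20.2%). The arrays of the ages did not overlap for 109 (45.8%), and miR-338 was not among them. The size of its difference was exceeded by 152 of the 238 tested miRNAs.

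The second probe of miR-338, A_26_P00001066, gave the same picture. It stood at -4.36, -4.07, -3.49 and -2.60 on P10 replicates 1 to 4 and at -3.17, -3.46, -3.70 and -3.04 on the adult arrays. Its adult minus P10 difference was 0.29. It lay below the brighter probe on all 8 arrays, by 0.13 to 0.35, and ordered the arrays in the same way within each age. The spread between P10 replicates was thus seen by both probes, which share the RNA and the array.

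**Figure D3:**
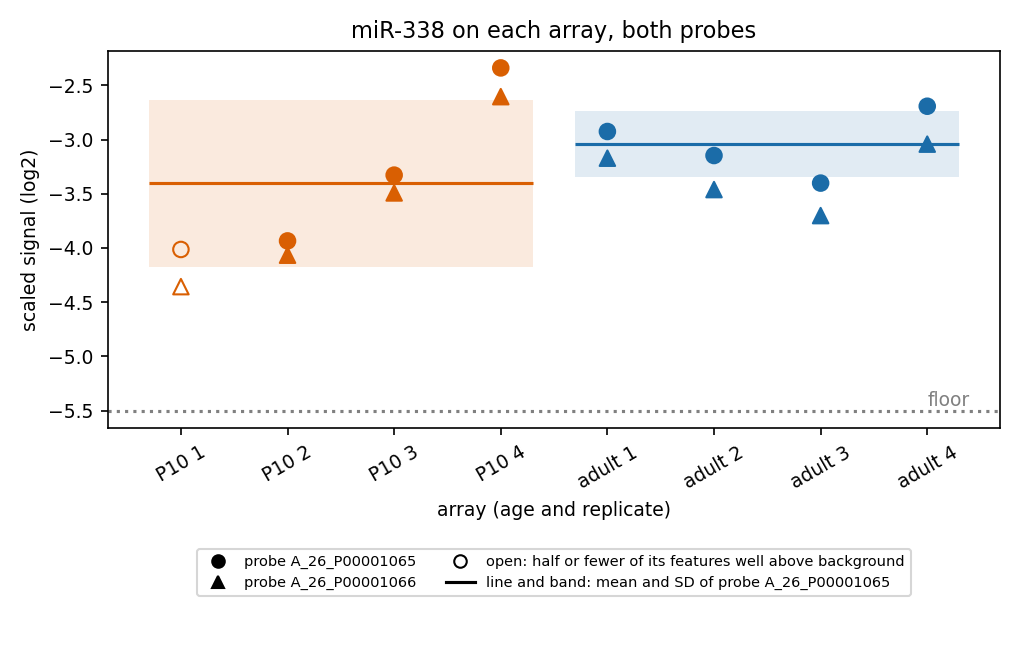
Scaled signal of miR-338 (log2) on each P10 (orange) and adult (blue) array, with circles and triangles for its 2 probes, and the mean and SD (n = 4 arrays) of the brighter probe as line and band. P10 runs from -4.01 to -2.34 on that probe and encloses the adult range of -3.40 to -2.69, and both probes on P10 replicate 1 are open, not well above background.

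The authors' deposited table of normalized log2 values holds miR-338 but not miR-338* or the miR-3065 products. There miR-338 stood at 6.08, 6.18, 7.06 and 7.89 on P10 replicates 1 to 4 and at 7.56, 7.34, 7.11 and 7.68 on adult replicates 1 to 4. P10 replicate 4 was again the highest of all arrays and P10 replicates 1 and 2 the lowest. P10 replicate 3, at 7.06, lay just below the lowest adult array, at 7.11. The ages thus overlapped there through P10 replicate 4 alone. The adult minus P10 difference was 0.62 (limma adjusted p = 0.232).

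The call for miR-338 turned on which P10 arrays entered. Without P10 replicate 4 the difference was 0.72 and passed the test (limma adjusted p = 0.0352), and leaving out any other single array did not bring it past the threshold. Setting only P10 replicates 1 and 2, the dimmest arrays, against the adults gave 0.93 (adjusted p = 0.00619). Setting only P10 replicates 3 and 4 against them gave -0.21 (adjusted p = 0.611). Weighting each array by its own estimated reliability gave 0.74 (adjusted p = 0.0147). Other background handling also turned the sign: a normexp correction with an offset of 50, which is above the miR-338 signal on P10 replicates 1 and 2, gave -0.27 (adjusted p = 0.23). Over the 26 alternatives with an adjusted p it ran from 0.00619 to 0.767.

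miR-375, an abundant beta-cell miRNA, offers a reference within each array that does not depend on array brightness. This reference was itself called higher in adults, by 0.47 (limma adjusted p = 0.0485). A difference in the ratio therefore mixes the changes of both miRNAs with age. miR-338 minus miR-375 was -6.91, -7.12, -6.89 and -5.77 on P10 replicates 1 to 4, a mean of -6.67 ± 0.61 (SD, n = 4). On the adult arrays it was -6.70, -6.81, -6.99 and -6.60, a mean of -6.77 ± 0.16 (SD, n = 4). The ages differed by -0.10, less than either SD (exact two-sided permutation p = 0.943). P10 replicate 4 again stood above the other arrays. These values follow the ratio between arrays only and do not compare the amounts of the miRNAs, since the probes differ.

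**Figure D4:**
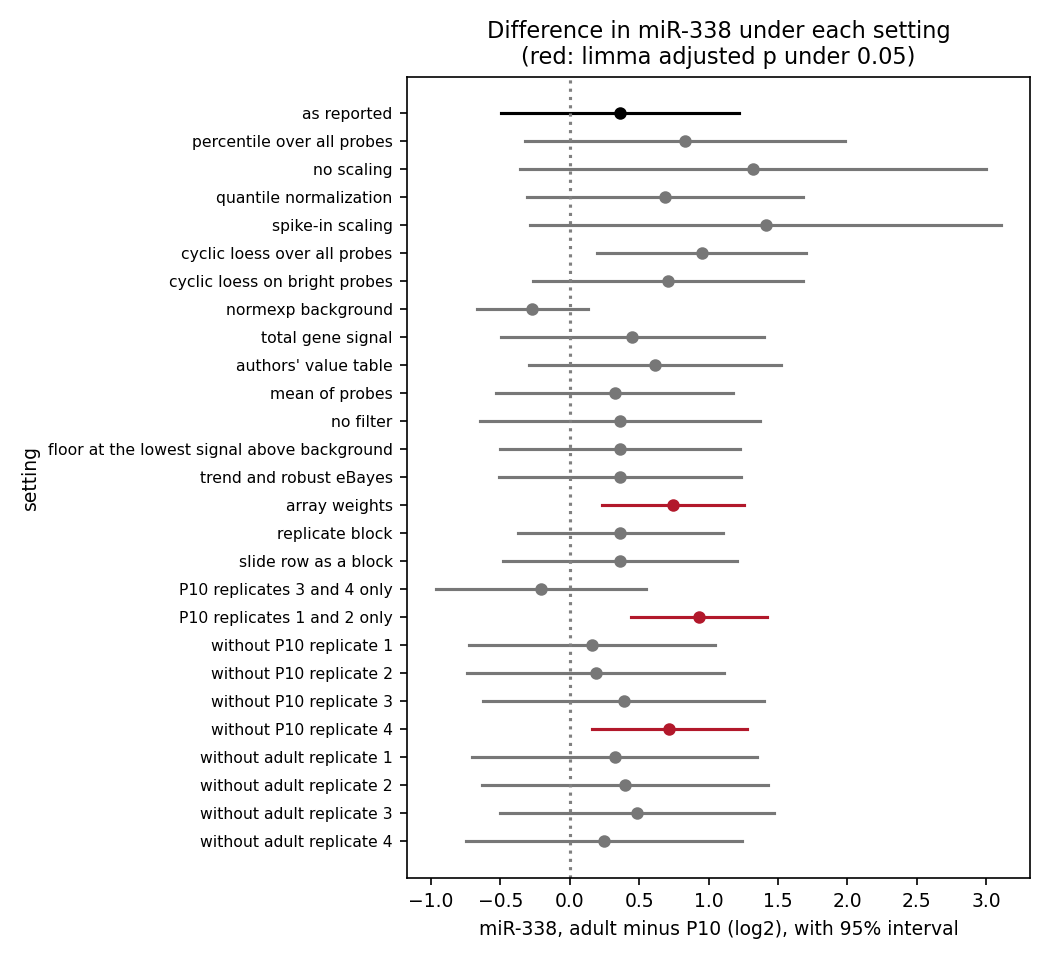
Adult minus P10 difference in miR-338 (log2, horizontal axis) with its 95% interval under each processing setting (rows), red where the limma adjusted p is under 0.05. The value as reported is 0.36 and the alternatives drawn run from -0.27 to 1.41, with 3 in red: array weights, P10 replicates 1 and 2 only, and without P10 replicate 4.

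miR-338 was more variable than most miRNAs at either age. Its SD over the P10 arrays, 0.77, was exceeded by 50 of the 238 tested miRNAs, whose median SD was 0.38. Its SD over the adult arrays, 0.30, was exceeded by 27, against a median of 0.11. The P10 SD was 2.55 times the adult SD, near the median ratio of 3.06 over all tested miRNAs. A wider spread at P10 was thus common among the miRNAs measured. The mean of P10 replicates 3 and 4 was 1.14 above that of replicates 1 and 2, which 15 of the 238 exceeded, while the median of all tested miRNAs was -0.02. Taken as a size in either direction, this gap was exceeded by 52 of the 238, against a median size of 0.53. Among the 238 tested miRNAs, 34 were highest of all arrays on P10 replicate 4, as miR-338 was, and 23 of these were also lowest on P10 replicate 1.

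Summed levels of the marker miRNAs of other cell types also differed between the P10 arrays, in multiples of the scaling percentile. The leukocyte markers miR-142-3p, miR-142-5p, miR-223 and miR-150, 4 of 4 measured, summed to 3.64 on P10 replicate 4, and to between 0.721 and 1.43 on the other P10 arrays and between 1.24 and 1.58 on the adult arrays. miR-142-3p, a miRNA of blood cells, stood at 1.36 (log2) on P10 replicate 4 and at -2.22, -1.67 and -2.07 on P10 replicates 1 to 3. miR-150, of lymphocytes, stood at -0.56 on P10 replicate 4, within its range on the other P10 arrays of -1.95 to 0.05. miR-223, of myeloid cells, stood at -2.65 on P10 replicate 4 and at -2.85 or below on the others, so the members of the list did not move alike. The acinar markers miR-216a, miR-216b-5p and miR-217, 3 of 3 measured, summed to 0.961 and 0.801 on P10 replicates 1 and 2, where miR-338 was lowest, and to 0.0807 and 0.066 on P10 replicates 3 and 4. On the adult arrays they summed to between 0.23 and 0.46. The mesenchyme markers, 5 of 5 measured, ran from 4.27 to 7.38 over the P10 arrays and from 5.10 to 7.11 over the adults, and the endothelial markers, 2 of 2, from 2.34 to 4.71 and from 2.92 to 3.32. Both sums were highest on P10 replicate 4 and lowest on P10 replicate 1, as was miR-338. Within the mesenchyme list this held over the P10 arrays for miR-143, at 0.94 on replicate 1 and 2.46 on replicate 4, and for miR-145. The other members, miR-199a-5p, miR-199a-3p and miR-214, were at their lowest P10 level on replicate 4, at -0.95, 0.05 and -1.94. The part of these cells in the level of miR-338 was not tested.

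Glial and neuronal markers were read because miR-338 is known from oligodendrocytes, and most of them were at background. The part of glial or neuronal cells in the level of miR-338 was not tested. Of the myelinating glia markers, 1 of 3 was above background on any array, namely miR-219-5p, which works beside miR-338 in oligodendrocyte maturation. That product was well above background on 3 of 4 P10 and 4 of 4 adult arrays. It stood at -3.93, -3.74, -4.37 and -4.10 on P10 replicates 1 to 4 and had a mean of -4.08 ± 0.07 (SD, n = 4) on the adult arrays. The other miR-219 products, miR-219-1-3p and miR-219-2-3p, were at the floor on all 8 arrays. The neuronal miR-124, miR-124*, miR-9 and miR-9* were also at the floor on all 8. The neuron list summed to between 0.115 and 0.246 in P10 and between 0.204 and 0.241 in adults, all of it from miR-128 and miR-137 beyond the floor. Neither list had a member that passed the test between the ages, with 1 glial and 2 neuronal miRNAs tested in limma. The lowest unadjusted p among these was 0.035, for miR-137, which was at the floor on P10 replicates 1 and 2.

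The islet endocrine markers were well above background on all arrays and called between the ages. Markers of other cell types, such as miR-126 and miR-143, were also well above background on all arrays. All 5 islet endocrine miRNAs were higher in adults at a limma adjusted p under 0.05, against 27.3% of all tested miRNAs, with a median difference of 1.61 against -0.01 over all tested. miR-204, which is enriched in beta cells, had the largest difference of the list, 1.91 ± 0.24 (SE, limma adjusted p = 0.000371), and passed under all 27 alternatives. miR-375 had the smallest, 0.47 ± 0.17 (limma adjusted p = 0.0485), and sat at the threshold: it missed it without P10 replicate 1 or 2 or without any 1 adult array, and turned to -0.32 after quantile normalization. The summed level of the 5 ran from 11.8 to 26.0 in P10 and from 44.1 to 50.2 in adults. On P10 replicates 1 and 2 it was 11.8 and 18.2, and on replicates 3 and 4 it was 25.6 and 26.0, so the P10 arrays with the least miR-338 also had the lowest sum.

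miR-338 has been grouped with other miRNAs that move when beta-cell mass adapts. In the compensation list, miR-184, a miRNA reported to restrain beta-cell expansion, was well above background on 1 P10 array and 0 adult arrays and was not tested. miR-132, a neuronal and endocrine activity miRNA, rose in adults (limma adjusted p = 0.000141). It was well above background on 2 of 4 P10 and 4 of 4 adult arrays, at a measured mean of -5.17 ± 0.39 in P10 and -3.01 ± 0.19 (SD, n = 4) in adults, with P10 replicates 1 and 2 at the floor, so its difference is not given as a size. Among 6 miRNAs linked with beta-cell loss, all tested, 1 was called higher in adults and 2 lower, near the 47.5% called among all tested miRNAs. miR-203, an epithelial miRNA, was one of those called lower (limma adjusted p = 0.00112). Its measured mean was -2.30 ± 1.07 in P10 and -5.46 ± 0.09 (SD, n = 4) in adults, where it was well above background on 1 array and at the floor on the others, so its difference has no size. miR-383 was the one called higher and was well above background on 0 P10 arrays, so it has no size either. The ages of miR-338 overlapped, unlike those of these called miRNAs.

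The remaining marker lists moved as follows between the ages, where 27.3% of all tested miRNAs were called higher and 20.2% lower. All 3 gut epithelium miRNAs were lower in adults, with miR-192 at -2.78 and miR-194 at -3.41 (limma adjusted p = 0.0107 and 0.00418) and miR-215 well above background on 0 adult arrays. The summed gut level was highest on P10 replicates 3 and 1, at 13.5 and 7.27, the second being the array with the least miR-338. Of the mesenchyme miRNAs, 3 of 5 were lower and 1 higher in adults, from -1.75 for miR-199a-5p (limma adjusted p = 2.75e-05) to 0.93 for miR-143 (0.0485). Both erythroid miRNAs measured were higher, miR-451 by 1.47 (limma adjusted p = 0.00859) and miR-144 with no size given (0.0379), since P10 replicates 1 and 3 and adult replicate 4 lay at the floor. The calls of miR-143 and miR-144 were lost on leaving out any of 7 single arrays, all but P10 replicate 4 for miR-143 and all but adult replicate 4 for miR-144. None of the 3 acinar, 2 endothelial and 4 leukocyte miRNAs tested passed the limma test, and 0 had an unadjusted p under 0.05, the range being 0.0905 to 0.812.

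The miRNAs whose profile over the 8 arrays was most like that of miR-338 were sought among the 164 tested miRNAs that were well above background on all arrays. Likeness was Pearson's r of the scaled log2 values over 8 arrays, given as a description, since the points share scaling, RNA quality and cell content. The median r was -0.17 and 1 miRNA was above 0.9. The highest were miR-146a at 0.905, miR-376c at 0.871, miR-410 at 0.835, and miR-142-3p and miR-369-5p at 0.831 each. miR-146a, an inflammation-induced miRNA, stood at -1.96, -1.86, -1.63 and -1.22 on P10 replicates 1 to 4 and at -1.47, -1.29, -1.62 and -1.47 on the adult arrays. It was thus lowest on P10 replicates 1 and 2 and highest on P10 replicate 4, as miR-338 was. miR-376c, miR-410 and miR-369-5p belong to the large imprinted cluster in the Dlk1-Dio3 region. miR-410 stood at -3.20, -2.92, -2.72 and -1.96 on the P10 arrays and between -2.78 and -2.64 on the adult arrays.

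Taking each array's deviation from its age mean, so that age itself drops out, the highest were miR-136* at 0.896, miR-146a at 0.895, miR-410 at 0.890, miR-487b at 0.879 and miR-29c at 0.870. These rest largely on the P10 arrays, where the deviations are wide. Without P10 replicate 4, r of the deviations was 0.523 for miR-136*, 0.637 for miR-146a and 0.70 for miR-29c. For miR-142-3p, which is not in this list, it went from 0.808 to -0.345. Under other processing, r over the arrays for miR-146a ran from 0.442 with normexp background to 0.983 with no scaling. With cyclic loess over all probes r turned to -0.386 for miR-376c and -0.208 for miR-369-5p and fell to 0.284 for miR-410. For miR-142-3p the lowest was 0.223, with normexp background.

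The lowest correlations were those of miR-200b at -0.970, miR-429 at -0.946, miR-30a* at -0.924, miR-30e* at -0.845 and let-7b* at -0.844. Of these, let-7b* was at the floor on P10 replicate 4 and adult replicates 1 and 3, so its r is partly set by the floor. miR-200b and miR-429 come from one cluster and mark epithelial identity. miR-200b stood at 1.69, 1.62, 1.20 and 0.53 on P10 replicates 1 to 4 and at 0.94, 1.01, 0.98 and 0.71 on adult replicates 1 to 4, so it was lowest on the array of each age on which miR-338 was highest. The opposition of these miRNAs to miR-338 depends on the scaling. With no scaling r was 0.848 for miR-200b, 0.927 for miR-429, 0.897 for miR-30a*, 0.966 for miR-30e* and 0.410 for let-7b*.

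**Figure D5:**
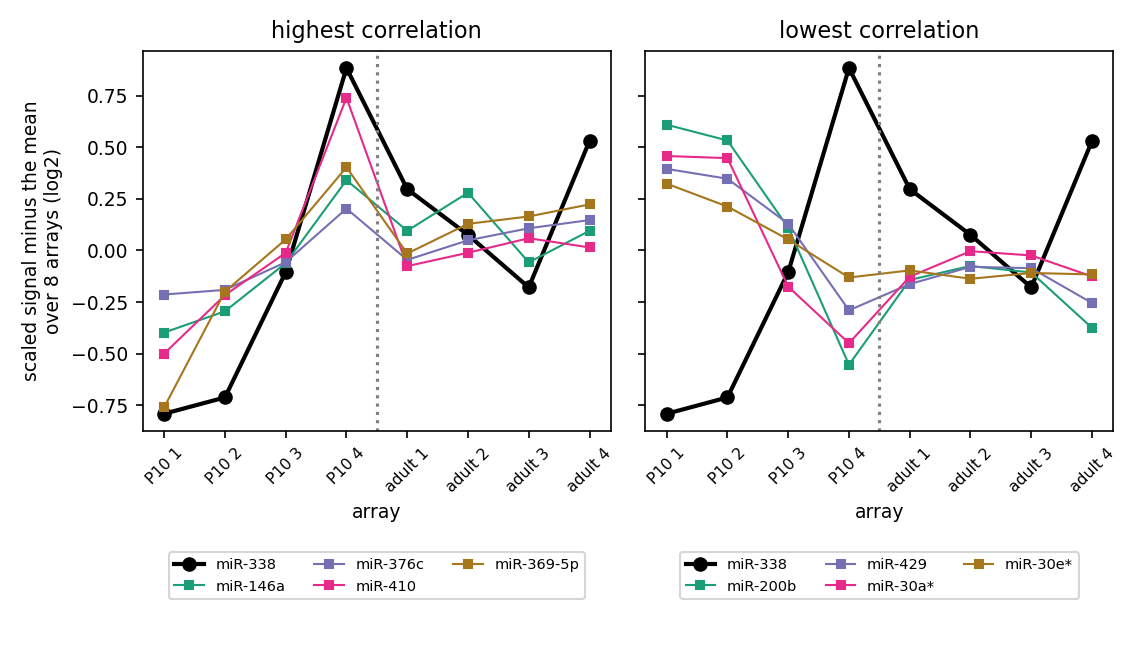
Scaled signal minus its mean over the 8 arrays (log2) for miR-338 (black) and 4 of the 5 miRNAs with the highest (left) and the lowest (right) correlation with it, with lines joining the values of 1 miRNA and no order meant among replicates. On P10 replicate 4, where miR-338 reached -2.34, miR-410 was at -1.96, its highest, and miR-200b at 0.53, its lowest.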

How the data were processed

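RNA from islets of 4 P10 and 4 adult rats was measured on 1-colour Agilent arrays. Per the file headers, the authors' scanner files were made with Feature Extraction 10.7.3.1 and hold intensity values that were background-subtracted and spatially detrended within each array. The deposited value table holds log2 values whose columns share 1 set of sorted values, and its scaling and centring were not given in the sources used here. Starting with the processed intensity, flagged outlier features were dropped and features averaged per probe. Each array was divided by its 75th percentile over 278 probes well above background on all arrays (a probe counts as such when most of its features are), floored (at the 1st percentile of such signals, as a median of the 8 arrays), and put on the log2 scale. The brightest probe stood for each miRNA. The 238 miRNAs well above background on at least 4 arrays were tested with limma 3.58.1 in R 4.3.3 (lmFit, eBayes, adult minus P10) with Benjamini-Hochberg adjustment at 0.05. The procedure was tested on simulated data. The number of arrays limits the precision, and p-values measure the spread between these 8 arrays.

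Alternatives covered scaling, background, filter, floor, probes, weights, blocks and left-out arrays. Replicate numbers did not pair the arrays. Named miRNAs were all miR-338 and miR-3065 products, the 5 most and least like miR-338 over the arrays, the 5 most like it within ages, and, in each list, all tested members of lists of up to 4 and otherwise the largest and smallest difference. The members and lists were chosen with earlier results of these data known. miRNA names come from the array, and RefSeq sequences matched all 4 products by name.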

Additional observations from a re-analysis of the deposited data

Results flagged for a closer look

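miR-338 itself had no array that stood apart by Dixon's criterion at either age. Among the miRNAs named beside it, 7 of 72 groups of 4 arrays had 1 array that stood apart. The gap of that array to the nearest other, divided by the group's range, passed the 95% critical value for 4 arrays. Chance flags about 1 group in 20 only where the 4 values are independent and normally distributed. Some groups here had values tied at the floor or were chosen by likeness to miR-338, so 7 of 72 cannot be read against that rate. On P10 replicate 4, where miR-338 was highest, the ratio was 0.845 for miR-142-3p and 1 for miR-142-5p, which was at the floor on the other P10 arrays. In adults it was 0.863 for miR-132 (low on replicate 1), 1 for miR-203 (above the floor on replicate 3 alone), 0.896 for let-7b* (high on replicate 2, the others at or near the floor), and 0.872 for miR-143 and 0.847 for miR-451 (both low on replicate 4).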

How the results depend on the processing

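The miR-338 difference of 0.36 was positive under 24 of 27 alternatives and kept its direction and missed the threshold under 21. It turned to -0.27 with normexp background, -0.21 with P10 replicates 3 and 4 only, and -0.10 against miR-375 of the same array. It passed the threshold at 0.74 with array weights, 0.93 with P10 replicates 1 and 2 only, and 0.72 without P10 replicate 4. Leaving out 1 array in turn gave 0.16 to 0.72. Scaling moved it most: 1.32 with no scaling and 1.41 with spike-in scaling, where the median of all tested miRNAs moved to 0.94 and 1.03. Requiring a signal above background on every array left no value for miR-338, and the comparison of its arms was not run, since miR-338* was not measured above background. The count of 113 called miRNAs became 68 with spike-in scaling, 25 with cyclic loess over all probes, 179 with array weights and 182 with P10 replicates 1 and 2 only, and ran from 84 to 138 with 1 array left out. The share of higher calls was 57.5%, against 72.6% with the percentile over all probes, 78.2% with no scaling, 86.8% with spike-in scaling, 36% with cyclic loess over all probes and 41.8% with normexp background. With the replicate number as a block, miR-338 stayed at 0.36 (limma adjusted p = 0.373) and 95 miRNAs were called; deviations of same-numbered arrays correlated at 0.18, -0.09, 0.48 and -0.23. miR-375 turned to -0.32 with quantile normalization, -0.28 with cyclic loess on bright probes and -0.41 in the authors' value table, and miR-144, at the floor on 3 arrays, to -0.32 with normexp background. The causes were not tested.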
